A study of Mus musculus with 12 samples.

Results

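The genes described here are 10 textbook targets of glucocorticoid hormones, followed in heart muscle from mice infused with angiotensin II (Ang II). They are Fkbp5, Tsc22d3, Zbtb16, Sgk1, Klf9, Ddit4, Mt1, Mt2, Errfi1 and Cdkn1a, 10 of the 47729 genes in the count table, and all 10 were among the 15336 genes with enough reads to be tested. They were picked by name, and looked at library by library, because the second EHP-101 library stood out for Fkbp5. That value is therefore a description, and no test is built on it. Heart RNA was sequenced in 12 libraries, 3 in each of 4 groups, from male C57BL/6 mice that were 8 weeks old at the start. A pump under the skin delivered Ang II, a peptide that raises blood pressure and scars the heart, or saline for 28 days. During the last 2 weeks the first group received Ang II with oral EHP-101 at 20 mg/kg, the second Ang II with losartan in the drinking water at 0.6 g/L, the third Ang II with vehicle and the fourth, the control group, saline with vehicle. Losartan is a blood pressure drug that antagonises the AT1 receptor for Ang II, and EHP-101 has PPARγ and CB2 as its targets. The control titles also hold, in brackets, Ang II control; they were read as the controls of the Ang II groups, infused with saline. Neither the time of day at which hearts were taken nor the part of the heart sampled is given in the sources used here.

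Glucocorticoids, chiefly corticosterone in mice, are released by the adrenal gland in a daily rhythm and in response to stress. Inside cells they bind the glucocorticoid receptor, NR3C1, which waits in the cytosol in a complex with Hsp90 and its helper proteins, then enters the nucleus and binds response elements near its target genes. Several targets brake the response itself or other growth and inflammatory signals. The enzyme HSD11B1 regenerates active hormone within tissues, and heart muscle carries the glucocorticoid receptor and lower levels of the related mineralocorticoid receptor, NR3C2.

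Depth was even, with 22155418 to 24040516 counts per library. Values are given as CPM, counts scaled to the TMM-adjusted library size, listed for replicates 1, 2 and 3 of a group, with SD over n = 3 libraries. Differences between groups are log2 fold changes ± SE from edgeR. Whether replicates were separate animals is not stated, so the spread behind the p-values could be technical. Control replicate 2 lay apart from the other libraries on the first principal component, at 84.4 against -32.4 to 12.7, and that component carried 35.3% of the variance. Cardiomyocyte markers were high in all libraries, with summed levels of 48714 to 58648 CPM under EHP-101, 45685 to 54412 under losartan, 42246 to 50996 for Ang II alone and 50076 to 54882 for controls.

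Fkbp5 encodes a helper of Hsp90 that lowers the affinity of the glucocorticoid receptor for its hormone, and is a feedback target of that receptor. It had 36, 239 and 27.2 CPM in the EHP-101 libraries, 63.6, 18.9 and 18.7 CPM in the losartan libraries, 19.1, 19.6 and 19.9 CPM for Ang II alone and 15.8, 18.9 and 11.4 CPM in the control libraries. EHP-101 replicate 2 was the highest of the 12 libraries, at 3.75 times the next. The next was losartan replicate 1, and EHP-101 replicates 1 and 3 followed. The other 8 libraries lay in a narrow band from 11.4 to 19.9 CPM. The group means were 100.7 ± 119.6 CPM under EHP-101, 33.7 ± 25.8 under losartan, 19.6 ± 0.406 for Ang II alone and 15.4 ± 3.78 for controls. All 3 EHP-101 values lay above all 3 Ang II values, whereas the EHP-101 and losartan ranges overlapped. The Ang II range lay just above the control range.

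**Figure D1:**
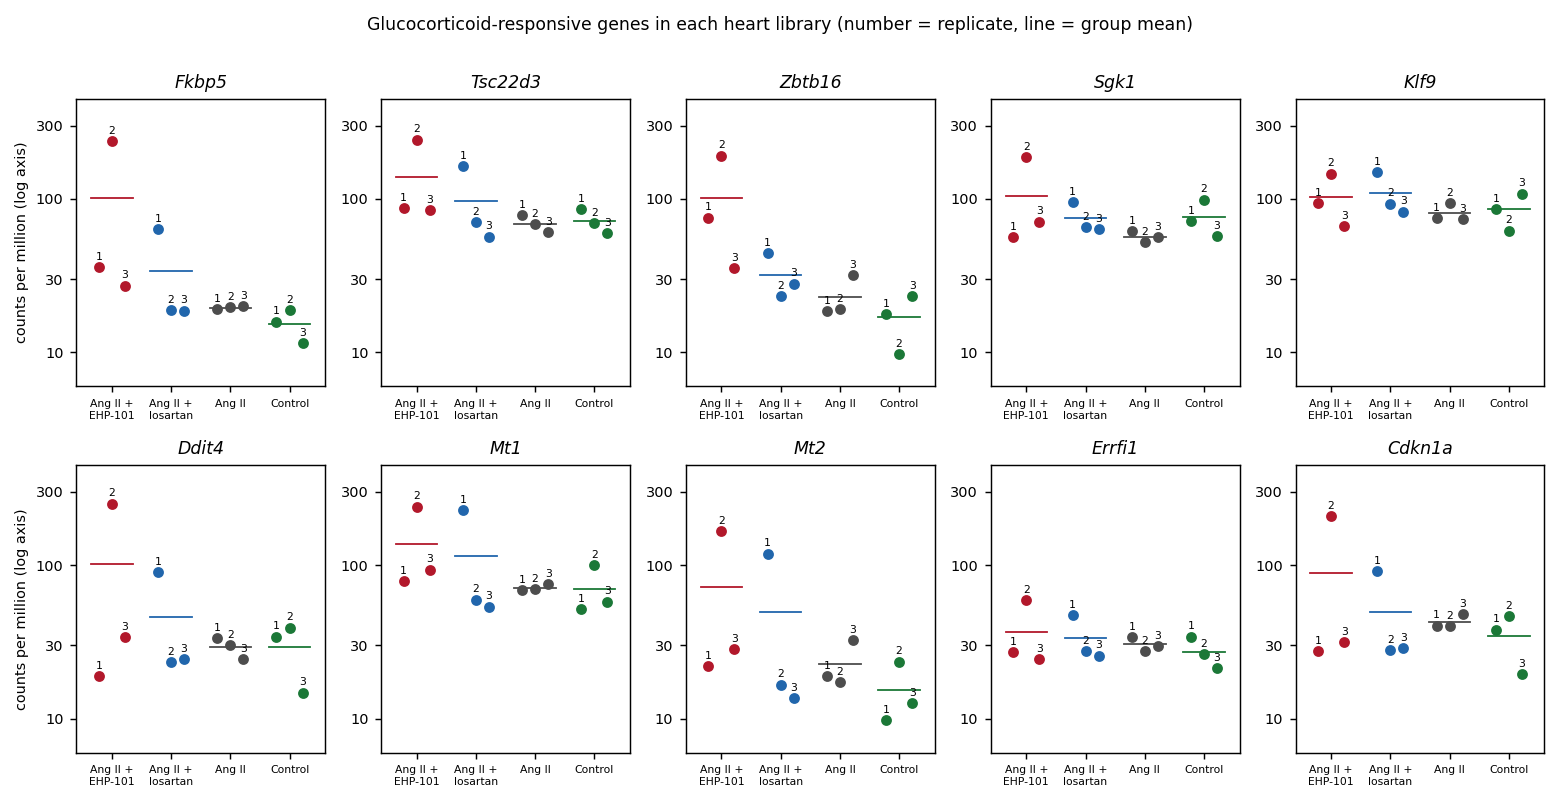
CPM (log axis) of the 10 genes in each of the 12 heart libraries, grouped as EHP-101, losartan, Ang II and control; points are libraries, numbers are replicates and lines are group means. EHP-101 replicate 2 is the highest library in 9 of 10 panels, with 239 CPM for Fkbp5, and losartan replicate 1 is raised in the same panels.

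Tsc22d3, Zbtb16 and Klf9 encode regulators of transcription. Tsc22d3, also known as GILZ, restrains inflammatory transcription factors and had 86.8, 243 and 84.3 CPM in the EHP-101 libraries, 164, 70.5 and 56.8 CPM in the losartan libraries, 78.2, 68.7 and 60.5 CPM for Ang II alone and 85.7, 69.9 and 59.8 CPM in the control libraries. EHP-101 replicate 2 and losartan replicate 1 were the highest, and the other 10 libraries lay between 56.8 and 86.8 CPM. Zbtb16, the zinc finger repressor PLZF, had 75.5, 192 and 35.3 CPM in the EHP-101 libraries, 44.1, 23.2 and 28 CPM in the losartan libraries, 18.5, 19 and 31.7 CPM for Ang II alone and 17.8, 9.69 and 23.2 CPM in the control libraries. Here the 3 EHP-101 libraries all lay above the 3 Ang II libraries, EHP-101 replicate 1 ranked second of the 12, followed by losartan replicate 1. Klf9, a Krüppel-like factor, had 94.4, 146 and 66.9 CPM in the EHP-101 libraries, 149.6, 93.3 and 82.8 CPM in the losartan libraries, 74.8, 94.2 and 74.1 CPM for Ang II alone and 85.8, 62.1 and 108 CPM in the control libraries. It was the 1 member in which losartan replicate 1, not EHP-101 replicate 2, was the highest library, and the 2 values differed by little.

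Sgk1 encodes a kinase that controls ion channels and transporters and also responds to aldosterone through the mineralocorticoid receptor. It had 56.4, 187 and 71.1 CPM in the EHP-101 libraries, 95, 65.1 and 63.8 CPM in the losartan libraries, 61.4, 52.3 and 56.3 CPM for Ang II alone and 71.4, 99 and 57.4 CPM in the control libraries. EHP-101 replicate 2 was again highest, but the second value was that of control replicate 2, followed by that of losartan replicate 1. All 3 losartan values lay above the 3 Ang II values, while the EHP-101 and Ang II ranges overlapped. Of 6 annotated Sgk1 promoters, each read from 250 bases before to 50 after a transcript start, 1 holds a match to the palindromic glucocorticoid response element, searched on both strands as GNACA followed after 3 bases by TGTNC. It is shown in capitals, as RefSeq gives the promoter at chr10:21993640-21993939 on the plus strand of GRCm38.p6, because only this promoter and that of Mt1 held the motif among the 9 members with a listed promoter.
Sgk1: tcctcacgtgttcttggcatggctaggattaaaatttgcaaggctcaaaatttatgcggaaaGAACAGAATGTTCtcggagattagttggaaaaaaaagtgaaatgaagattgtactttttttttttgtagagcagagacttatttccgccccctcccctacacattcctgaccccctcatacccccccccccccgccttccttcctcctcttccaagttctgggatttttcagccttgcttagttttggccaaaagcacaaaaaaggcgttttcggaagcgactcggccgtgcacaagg
The match starts 188 bases before the transcript start, and 0.475% of all 32851 promoters of that length hold such a match. The shorter core ACANNNTGT, which lies within it, also occurs in 1 other Sgk1 promoter and in 6.85% of all promoters. No promoter was listed for Zbtb16.

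Ddit4, Errfi1 and Cdkn1a encode brakes on growth signals. Ddit4, also called REDD1, inhibits the growth kinase complex mTORC1 and also responds to hypoxia and DNA damage. It had 18.8, 252 and 33.9 CPM in the EHP-101 libraries, 89.6, 23.3 and 24.4 CPM in the losartan libraries, 33.4, 30.2 and 24.3 CPM for Ang II alone and 34.2, 39.1 and 14.8 CPM in the control libraries. EHP-101 replicate 2 stood at 2.81 times the next library, losartan replicate 1, whereas EHP-101 replicate 1 lay below all 3 Ang II libraries. Errfi1, an inhibitor of the EGF receptor family, had 27, 59.1 and 24.5 CPM in the EHP-101 libraries, 47.1, 27.6 and 25.7 CPM in the losartan libraries, 34, 27.6 and 29.5 CPM for Ang II alone and 34.2, 26.2 and 21.2 CPM in the control libraries. It showed the same order with a narrower range, since the other 10 libraries spanned 21.2 to 34.2 CPM. Cdkn1a, the cell cycle inhibitor p21 and a classical target of p53, had 27.7, 208 and 31.5 CPM in the EHP-101 libraries, 91.1, 28 and 28.8 CPM in the losartan libraries, 40.3, 40 and 47.8 CPM for Ang II alone and 38, 46.4 and 19.5 CPM in the control libraries. EHP-101 replicate 2 and losartan replicate 1 were the 2 highest, yet the other 2 EHP-101 libraries and the other 2 losartan libraries all lay below the 3 Ang II libraries.

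Mt1 and Mt2 encode metallothioneins, small proteins that bind zinc and copper and respond to metals as well as to glucocorticoids. The genes are neighbours on chromosome 8, Mt2 from 94172664 to 94173568 and Mt1 from 94179082 to 94180327 (GRCm38, GENCODE M21). Mt1 had 78.7, 241 and 93.5 CPM in the EHP-101 libraries, 229.6, 59.5 and 53.6 CPM in the losartan libraries, 69.1, 69.7 and 75.2 CPM for Ang II alone and 51.9, 99.6 and 57.9 CPM in the control libraries. Mt2 had 21.9, 167 and 28.3 CPM in the EHP-101 libraries, 119, 16.6 and 13.5 CPM in the losartan libraries, 18.9, 17.2 and 32.4 CPM for Ang II alone and 9.81, 23.5 and 12.6 CPM in the control libraries. In both genes EHP-101 replicate 2 and losartan replicate 1 were far above the rest, and the ratio between these 2 was 1.05 for Mt1 and 1.41 for Mt2. Exons of Mt2 share 73.5% of their bases with Gm45774, an antisense gene outside the count table, and the kit keeps no strand, so their reads cannot be told apart. Cdkn1a shares 7.68% of its exon bases with another gene on the opposite strand, and the other 8 members share none.

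The promoters of both metallothionein genes are shown because both genes were high in the same libraries. They hold clusters of TGCNCNC, searched on both strands and given in capitals. This is a looser form of the metal response element core, TGCRCNC, in which R is A or G. Both are RefSeq sequences of GRCm38.p6 on the plus strand, Mt1 at chr8:94178839-94179138 and Mt2 at chr8:94172368-94172667.
Mt1: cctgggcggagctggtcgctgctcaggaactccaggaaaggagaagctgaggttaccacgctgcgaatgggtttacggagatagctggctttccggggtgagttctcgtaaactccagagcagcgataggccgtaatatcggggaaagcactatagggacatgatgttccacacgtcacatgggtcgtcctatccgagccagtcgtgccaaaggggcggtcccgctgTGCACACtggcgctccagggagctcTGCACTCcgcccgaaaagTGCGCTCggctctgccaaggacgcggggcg
Mt2: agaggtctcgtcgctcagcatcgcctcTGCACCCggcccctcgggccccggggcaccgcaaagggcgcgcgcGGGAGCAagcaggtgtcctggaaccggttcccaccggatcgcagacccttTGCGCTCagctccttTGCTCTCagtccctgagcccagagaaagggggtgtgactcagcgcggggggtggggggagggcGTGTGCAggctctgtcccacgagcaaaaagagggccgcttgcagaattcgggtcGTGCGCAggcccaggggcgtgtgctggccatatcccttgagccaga
Mt1 held 3 matches to the looser string and Mt2 held 6. In Mt2, TGCTCTC, and GGGAGCA read on the other strand, have T where the stricter core has A or G. The shares that follow are also for the looser string. At least 1 match occurred in 51% of all promoters, at least 3 in 7.1% of all promoters and at least 5 in 0.697%. Mt1 also held a match to the glucocorticoid response element, GGACATGATGTTC, which starts 94 bases before the transcript start. A match is a string of letters and not a measured binding site.

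Per kilobase of merged exon, the median level over the 12 libraries was highest for Mt1, at 58.1 CPM per kilobase, followed by Mt2 at 34.7. Klf9, Ddit4 and Tsc22d3 were close to each other at 18.6, 18.1 and 17.1 CPM per kilobase, then came Sgk1 at 13.1 and Cdkn1a at 11. Errfi1, Zbtb16 and Fkbp5 were lowest, at 7.71, 4.85 and 2.05 CPM per kilobase. In GRCm38 with GENCODE M21, Fkbp5 lies on chromosome 17 from 28399094 to 28517527 on the minus strand. Zbtb16 lies on chromosome 9 from 48654297 to 48836222 on the minus strand.

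The library pattern ran through nearly the whole set. Summed over the 10 members, levels were 523, 1934 and 497 CPM in the EHP-101 libraries, 1092, 426 and 396 in the losartan libraries, 448, 439 and 452 in the Ang II libraries and 445, 494 and 386 in the control libraries. Since Fkbp5 in EHP-101 replicate 2 led to the choice of genes, the counts here are over the 9 other members, beside the share of all tested genes. EHP-101 replicate 2 was the highest of the 12 libraries for 8 of the 9 (9.62% of all tested genes). Losartan replicate 1 was the highest losartan library for each of them, as for Fkbp5, which holds for 40.4% of all tested genes. Both libraries together were the highest 2 for 7 of the 9 (3.8%). As ratios to the median of the other 10 libraries, EHP-101 replicate 2 was above 2-fold for 8 (2.45%) and losartan replicate 1 for 5 (1.55%). EHP-101 replicate 2 exceeded even the next library by more than 2-fold for 3 members, Zbtb16, Ddit4 and Cdkn1a (0.365%). Both libraries were above 2-fold of the median for 5 members, Tsc22d3, Ddit4, Mt1, Mt2 and Cdkn1a (0.541%).

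How far those libraries stood above the others differed between members. In EHP-101 replicate 2 the ratio was 12.5 for Fkbp5, 9.26 for Mt2, 9.23 for Ddit4 and 8.27 for Zbtb16. It was 5.97 for Cdkn1a, 3.47 for Mt1 and Tsc22d3, 2.99 for Sgk1, 2.16 for Errfi1 and 1.74 for Klf9. In losartan replicate 1 the order was another, with 6.58 for Mt2 ahead of 3.34 for Fkbp5, 3.31 for Mt1 and 3.28 for Ddit4. Cdkn1a, Tsc22d3, Zbtb16, Klf9 and Errfi1 followed at 2.62, 2.33, 1.9, 1.77 and 1.73, and Sgk1 was lowest at 1.52. Mt1 was thus nearly level between the 2 libraries, while Zbtb16 and Fkbp5 were several times higher in EHP-101 replicate 2. With the 10 other libraries alone, Zbtb16 varied the most, 7.79-fold between its lowest and highest library, and Tsc22d3 the least, 1.53-fold. The highest of those 10 values for Zbtb16 and for Fkbp5 was that of EHP-101 replicate 1, while control replicate 2 held the highest value for Sgk1, Ddit4 and Mt1.

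**Figure D2:**
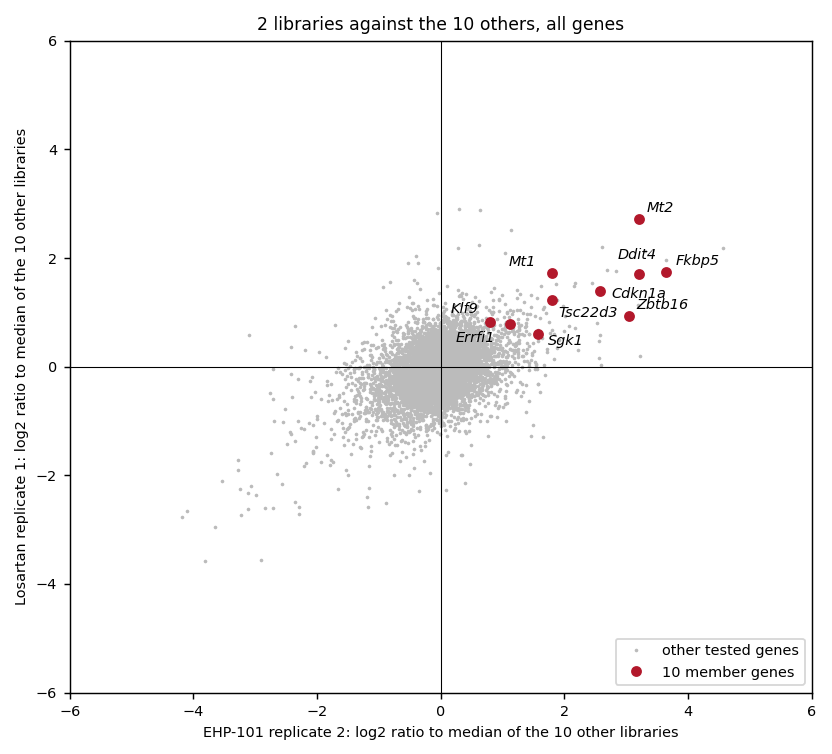
Log2 ratio of CPM in EHP-101 replicate 2 (horizontal axis) and in losartan replicate 1 (vertical axis) to the median of the 10 other libraries, for 13217 tested genes whose median there was at least 1 CPM; 1 gene lies outside the axes. The 10 members (red) lie in the upper right part, outside or at the edge of the grey cloud of other genes.

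Libraries from mice given EHP-101 on top of Ang II were set against those with Ang II alone, to ask what the compound changed during the infusion. All 10 members had a positive log2 fold change, with a median of 1.03 against 0.00 for all tested genes. Both the count and the median include Fkbp5, whose value led to the choice of members, and are a description. Zbtb16 had 100.9 ± 81.2 CPM under EHP-101 and 23.1 ± 7.47 CPM with Ang II alone (log2 fold change 2.13 ± 0.54). Fkbp5 had the largest difference, 2.36 ± 0.78, from the value that led to its choice. Ddit4 and Mt2 followed at 1.79 ± 0.89 and 1.66 ± 0.95, then Cdkn1a at 1.06 ± 0.74 and Tsc22d3 at 1.0 ± 0.43. Mt1, Sgk1, Klf9 and Errfi1 had 0.95 ± 0.55, 0.89 ± 0.37, 0.34 ± 0.29 and 0.28 ± 0.32. None of the 10 passed at an adjusted p below 0.05 by edgeR's quasi-likelihood F-test (Benjamini-Hochberg over all genes), against 0% of all tested genes. Apart from Fkbp5, the adjusted p was lowest for Zbtb16, at 0.334, and highest for Errfi1, at 0.954. Of the 9 members other than Fkbp5, 3 had an unadjusted p below 0.05, Zbtb16, Sgk1 and Tsc22d3, as did 1108 genes in all (7.22%). DESeq2 called 61 genes and limma-voom 0, with 0 members in either.

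EHP-101 replicate 2 set the size of these differences. Without it the log2 fold change was 0.69 for Fkbp5, 1.27 for Zbtb16, 0.31 for Tsc22d3, 0.27 for Mt1, 0.17 for Sgk1 and 0.14 for Mt2. It was below 0 for Cdkn1a (-0.53), Errfi1 (-0.24), Ddit4 (-0.15) and Klf9 (-0.0051). The members thus split, with Fkbp5 and Zbtb16 still the highest relative to Ang II in the remaining 2 EHP-101 libraries. With all 3 libraries, the EHP-101 and Ang II ranges did not overlap for 3 of the 9 members other than Fkbp5, namely Tsc22d3, Zbtb16 and Mt1, each higher under EHP-101, and 7.01% of all tested genes were higher in this way. For Mt1 the gap was narrow, 78.7 CPM in the lowest EHP-101 library against 75.2 CPM in the highest Ang II library.

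Losartan with Ang II was likewise compared with Ang II alone. All 10 members again had a positive log2 fold change, with a median of 0.47 against 0.00 for all tested genes. Mt2 had 49.6 ± 59.8 CPM under losartan and 22.8 ± 8.35 CPM with Ang II alone (log2 fold change 1.12 ± 0.94, adjusted p = 0.825, edgeR). Fkbp5 had 0.78 ± 0.75, Mt1 0.68 ± 0.55 and Ddit4 0.64 ± 0.88. Tsc22d3, Zbtb16, Klf9 and Sgk1 had 0.49 ± 0.42, 0.46 ± 0.52, 0.42 ± 0.29 and 0.40 ± 0.36, while Cdkn1a and Errfi1 were near 0 at 0.21 ± 0.74 and 0.14 ± 0.32. For every member the SE was large beside the difference, and 0 of 10 passed, against 0% of all tested genes in edgeR, with adjusted p between 0.76 for Klf9 and 0.979 for Cdkn1a. At an unadjusted p below 0.05 there were 0 members and 1289 genes (8.41%). DESeq2 called 108 genes and limma-voom 0, with 0 members in either.

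Here losartan replicate 1 set the values. Without it the log2 fold change was -0.60 for Mt2, -0.59 for Cdkn1a, -0.33 for Mt1, -0.29 for Ddit4, -0.19 for Errfi1, -0.12 for Tsc22d3 and -0.056 for Fkbp5. Those 7 members changed sign. Sgk1, Zbtb16 and Klf9 had 0.19, 0.15 and 0.12. Sgk1 was also the 1 member whose losartan and Ang II ranges did not overlap, with 63.8 CPM in the lowest losartan library against 61.4 CPM in the highest Ang II library, and 9.22% of all tested genes were higher in this way.

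**Figure D3:**
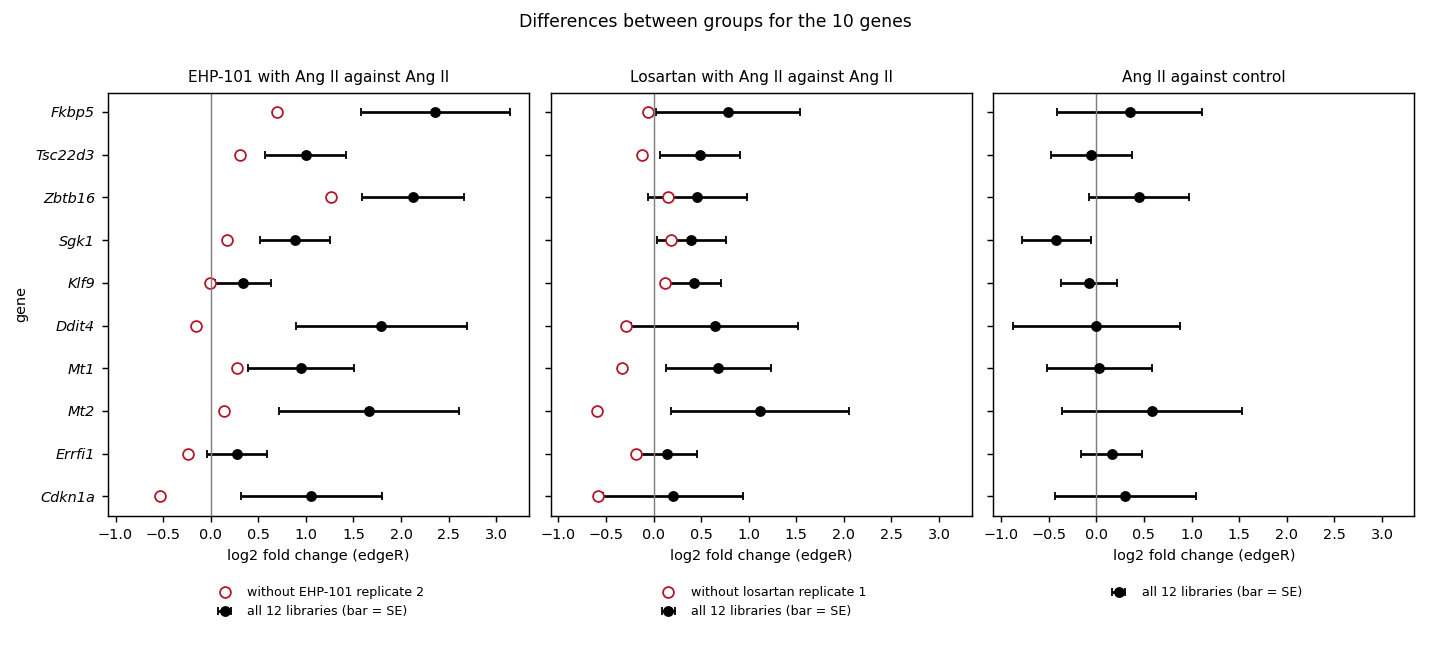
Log2 fold changes of the 10 members in 3 comparisons, EHP-101 with Ang II against Ang II, losartan with Ang II against Ang II, and Ang II against control; filled points use all 12 libraries, bars are SE, and open points leave out EHP-101 replicate 2 or losartan replicate 1. The open points lie near or below 0 for most members, with Zbtb16 at 1.27 and Fkbp5 at 0.69 in the EHP-101 comparison.

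The infusion itself, Ang II against control, gave the members' smallest median difference. The median log2 fold change was 0.10 against 0.00 for all tested genes, with 6 members above 0 and 4 below. Of those below 0, Tsc22d3, Klf9 and Ddit4 were above 0 when library size alone set the scale, at 0.12, 0.068 and 0.20, a setting in which the median of all genes was itself at 0.17. The largest values were 0.59 ± 0.95 for Mt2, 0.45 ± 0.53 for Zbtb16 and -0.42 ± 0.37 for Sgk1 (adjusted p = 0.768, 0.667 and 0.543, edgeR). Fkbp5 had 0.35 ± 0.76, Cdkn1a 0.30 ± 0.74 and Errfi1 0.16 ± 0.32, while Klf9, Tsc22d3, Mt1 and Ddit4 lay between -0.077 and 0.032. None of the 10 passed, where edgeR called 0.541% of all tested genes, 83 in number, and at an unadjusted p below 0.05 there were 0 members against 17.6% of all genes. DESeq2 and limma-voom called 513 and 51 genes with 0 members in either. Fkbp5 was the 1 member whose groups did not overlap, with 19.1 to 19.9 CPM in the Ang II libraries and 11.4 to 18.9 CPM in the control libraries, and 12.3% of all tested genes were higher in this way. Without control replicate 2 the log2 fold change of Mt2 was 1.03, that of Mt1 0.38 and that of Cdkn1a 0.57, and none of them passed.

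EHP-101 was also set directly against losartan, both given with Ang II. With Fkbp5 included, the members had a median log2 fold change of 0.53 against 0.00 for all tested genes, positive for 9 and negative for Klf9. Zbtb16 differed most, with 100.9 ± 81.2 CPM under EHP-101 and 31.8 ± 11 CPM under losartan (log2 fold change 1.67 ± 0.53, adjusted p = 0.698, edgeR). Fkbp5 and Ddit4 had 1.58 ± 0.76 and 1.15 ± 0.88, and the metallothioneins Mt1 and Mt2 had 0.27 ± 0.55 and 0.55 ± 0.92. None of the 10 passed, against 0% of all tested genes, and 1 member, Zbtb16, had an unadjusted p below 0.05, against 6.04% of all tested genes. DESeq2 called 25 genes and limma-voom 0, with 0 members in either, and the ranges of the 2 groups overlapped for all 10 members, where 6.57% of all tested genes were higher under EHP-101 without overlap. The comparison rests on both high libraries. Without EHP-101 replicate 2 alone, 9 of the 10 members were below 0, with Mt2 at -0.98, Ddit4 at -0.80, Cdkn1a at -0.74, Mt1 at -0.41 and Fkbp5 at -0.094, while Zbtb16 was at 0.80. Without losartan replicate 1 alone, Fkbp5 was at 2.42 and Mt2 at 2.26. With both left out, a setting chosen after seeing the data, Zbtb16 had 1.11, Fkbp5 0.74, Mt2 0.73 and Mt1 0.60, while Sgk1, Ddit4 and Cdkn1a were at -0.025, 0.13 and 0.050.

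The receptors and their partners were set beside the members library by library. Nr3c1 had 114, 85.6 and 102 CPM in the EHP-101 libraries, 120.3, 126 and 129 CPM in the losartan libraries, 115, 108 and 118 CPM for Ang II alone and 111, 93.6 and 120.3 CPM in the control libraries, so EHP-101 replicate 2 was the lowest of the 12 libraries for it. Nr3c2 had 26.2, 13.2 and 15.1 CPM in the EHP-101 libraries, 22.2, 26.3 and 25.6 CPM in the losartan libraries, 17.4, 25 and 20.6 CPM for Ang II alone and 27.6, 18.7 and 27.8 CPM in the control libraries, and EHP-101 replicate 2 was again the lowest. Hsd11b1 had 18.8, 21.4 and 10.9 CPM in the EHP-101 libraries, 24.5, 12.4 and 11.4 CPM in the losartan libraries, 10.9, 12 and 11.4 CPM for Ang II alone and 13.9, 20.9 and 13 CPM in the control libraries, with losartan replicate 1 and EHP-101 replicate 2 the 2 highest. Of 10 tested genes for the receptors, the activating enzymes and the Hsp90 complex, 0 passed in any of the 4 comparisons. EHP-101 replicate 2 was above 2-fold of the median of the other 10 libraries for 0 of them (2.45% of all tested genes). For 10 genes that is near the share of all genes. It was the highest library for 2 of them (9.62%). For 2, Hsd11b1 and Ppid, losartan replicate 1 and EHP-101 replicate 2 were the 2 highest libraries (3.8%). Fkbp4, the Hsp90 helper related to Fkbp5, had a log2 fold change of -0.69 ± 0.17 for Ang II against control (adjusted p = 0.108, edgeR, called by DESeq2), followed by Stip1 at -0.35 ± 0.14 and Hsp90aa1 at 0.39 ± 0.17. For EHP-101 against Ang II the smallest p-values were those of Hsd11b1, Nr3c1 and Ppid, at 0.58 ± 0.30, -0.18 ± 0.13 and 0.097 ± 0.10. For losartan against Ang II they were those of Hsd11b1, Fkbp4 and Ppid, at 0.50 ± 0.30, 0.26 ± 0.17 and 0.14 ± 0.10, and Hsd11b1 was at 0.064 without losartan replicate 1. For EHP-101 against losartan, Nr3c1 had -0.31 ± 0.13, Fkbp4 -0.40 ± 0.17 and Nr3c2 -0.44 ± 0.24 (adjusted p = 0.779, 0.793 and 0.874, edgeR). In that comparison Hsd11b1 differed little, at 0.079 ± 0.30.

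A wider list of glucocorticoid targets showed the members' library pattern in part. Of 24 tested genes, 11 were highest in EHP-101 replicate 2 (9.62% of all tested genes). For 13, EHP-101 replicate 2 and losartan replicate 1 were the 2 highest libraries (3.8%). Both libraries were above 2-fold of the median of the other 10 for 6 of the 24 (0.541%). Fam107a, a stress-induced actin-binding protein, had 8.12, 88 and 4.38 CPM in the EHP-101 libraries, 16.8, 3.68 and 3.04 CPM in the losartan libraries, 3.72, 3.53 and 4.27 CPM for Ang II alone and 4.63, 3.5 and 2.75 CPM in the control libraries. Arrdc2, an arrestin-like adaptor, and Hif3a, a member of the HIF family, reached 60.7 and 13.3 CPM in EHP-101 replicate 2. In losartan replicate 1 they reached 26.7 and 4.18 CPM, and each had at most 7.85 and 1.99 CPM in the other 10 libraries. Pdk4, which slows glucose oxidation, and Angptl4, an inhibitor of lipoprotein lipase, differed from the members. Pdk4 had 2811 CPM in losartan replicate 1 and 589 CPM in EHP-101 replicate 2. For Angptl4, EHP-101 replicate 2 was the lowest of the 12 libraries, at 6.31 CPM, and losartan replicate 1 the highest, at 33 CPM. Dusp1 also differed from the members, with EHP-101 replicate 2 at rank 10 of 12 and losartan replicate 1 at rank 9.

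Over this wider list the median log2 fold change was 0.48 for EHP-101 against Ang II, with 21 genes above 0, and 0.23 for losartan against Ang II, with 20 above 0. It was 0.09 for Ang II against control and 0.21 for EHP-101 against losartan, and 0 of 24 passed in any comparison in edgeR. For EHP-101 against Ang II the smallest p-values were those of Per1, Hif3a and Ptgds, at 1.58 ± 0.51, 2.15 ± 0.74 and 1.48 ± 0.51 (adjusted p = 0.473, 0.499 and 0.502, edgeR). For losartan against Ang II they were those of Pdk4, Anxa1 and Sesn1, at 1.55 ± 0.67, -0.50 ± 0.22 and 0.66 ± 0.29. Without EHP-101 replicate 2, Hif3a was at 0.60 and Per1 at 0.98 against Ang II, and without losartan replicate 1, Pdk4 was at -0.16 and Sesn1 at 0.19. Anxa1 against Ang II was at -0.27 without losartan replicate 3. Anxa1, Lcn2 and Ptgds led for Ang II against control, at 0.64 ± 0.22, 1.46 ± 0.58 and -1.17 ± 0.51. Ptgds was at -0.065 without control replicate 2, and Lcn2 at 0.71 without Ang II replicate 3. Lcn2, Hif3a and Fam107a led for EHP-101 against losartan, at 1.26 ± 0.56, 1.48 ± 0.71 and 2.1 ± 1.01. Without EHP-101 replicate 2, Hif3a turned to -0.087 and Fam107a to -0.32.

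**Figure D4:**
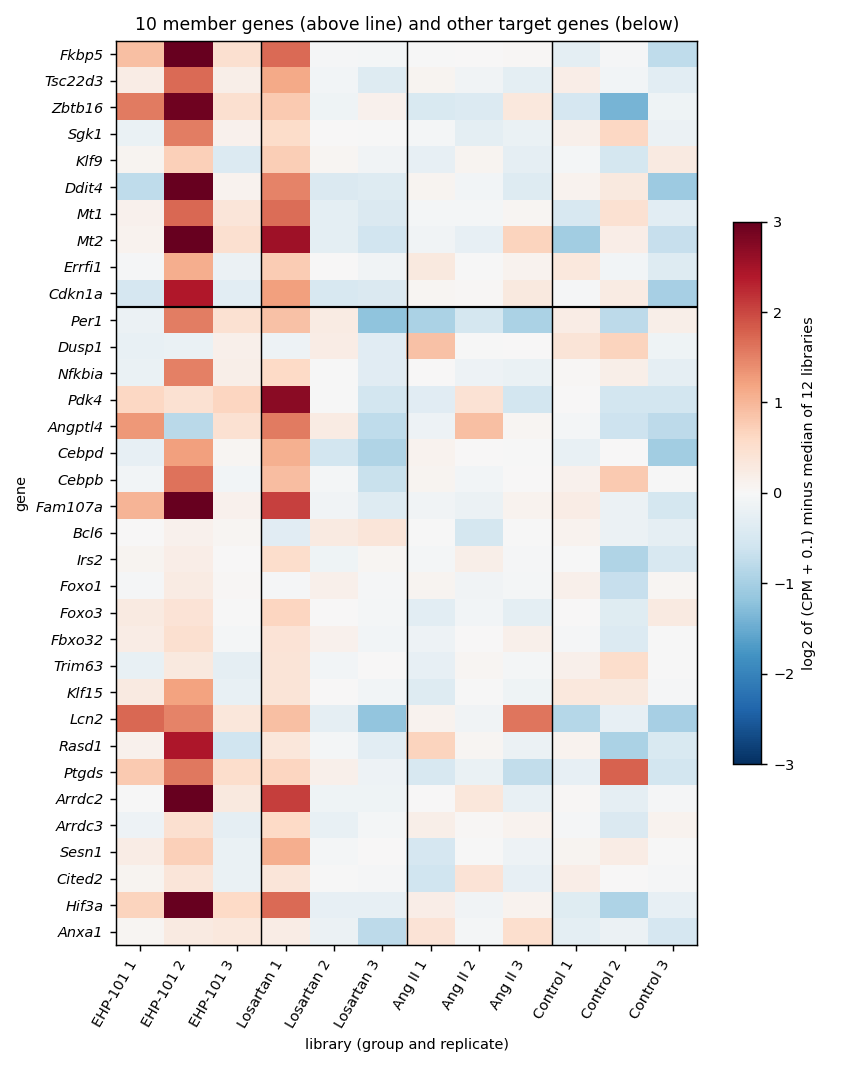
Log2 of CPM + 0.1 relative to the median of the 12 libraries, for the 10 members (above the line) and 24 other glucocorticoid targets (below), with libraries in columns by group; the colour scale stops at 3. The columns of EHP-101 replicate 2 and losartan replicate 1 are red for the members and for part of the other genes, and most cells of the other columns are pale.

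The genes whose profile over the 12 libraries was most like that of Fkbp5 included 1 other member. Likeness was the mean absolute difference in log2 CPM after centring each gene, over 13282 genes with a mean of at least 1 CPM, and the median gene differed by 0.833. The 5 nearest were Map3k6, Hif3a, Fam107a, Arrdc2 and Ddit4, at 0.221, 0.227, 0.275, 0.318 and 0.34. Map3k6, a kinase of stress signalling, had 20.3, 91.5 and 13.1 CPM in the EHP-101 libraries, 22, 11 and 9.45 CPM in the losartan libraries, 9.91, 10.2 and 11.1 CPM for Ang II alone and 9.56, 7.91 and 8.47 CPM in the control libraries. Its 3 EHP-101 values all lay above the Ang II values, as they did for Fkbp5. The profile of Fkbp5 includes its value in EHP-101 replicate 2, which led to the choice of members. The ranks are therefore a description. Among the members, Ddit4 ranked 5, Mt1 9, Mt2 11, Tsc22d3 12, Cdkn1a 16 and Zbtb16 20. Sgk1, Errfi1 and Klf9 were less alike, at ranks 91, 192 and 242. For Map3k6, as for Fkbp5, the 2 highest libraries were EHP-101 replicate 2 and losartan replicate 1.

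Other gene lists were set beside the members. Immediate early genes respond within minutes to stimulation. EHP-101 replicate 2 was the lowest of the 12 libraries for 7 of 11, and for 1430 of all 15336 tested genes. Egr1 had 10.3 CPM there against 26.9 to 108 CPM in the 10 libraries other than EHP-101 replicate 2 and losartan replicate 1. Of 17 clock genes, 0 were called for EHP-101 against Ang II by edgeR. At an unadjusted p below 0.05, 7 were higher and 2 lower, against 7.22% of all tested genes in either direction. Per2 had 30.2, 27.6 and 20.6 CPM in the EHP-101 libraries against 6.95, 6.4 and 6.22 CPM for Ang II alone. Per1, a clock gene and glucocorticoid target, had 29.7, 97.2 and 46.5 CPM in the EHP-101 libraries against 17.4, 23.2 and 17.4 CPM in the Ang II libraries. Per2 was higher in all 3 EHP-101 libraries than in the other 9. EHP-101 replicate 2 was the highest library for 1 of the 17 clock genes (9.62% of all tested genes), which is near the share of all genes. Per1 was counted in the wider list of targets and not among the 17. EHP-101 replicate 2 was its highest library and losartan replicate 1 the next. Summed atrial markers (7 of 7 detected) were 569.7, 545 and 1186 CPM in the EHP-101 libraries, 359, 2156 and 81.7 in the losartan libraries, 2909.5, 2033 and 1622 in the Ang II libraries and 1362, 319 and 1932 in the control libraries. The lowest 4 sums were those of losartan replicate 3, control replicate 2, losartan replicate 1 and EHP-101 replicate 2. In whole hearts, fewer cells of a type and less RNA per cell cannot be told apart. The part of clock phase, stimulation and atrial content in the members' levels was not tested.

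Leukocyte markers (5 of 6 tested) summed to 50 to 93.2 CPM under EHP-101, 86.4 to 99.5 under losartan, 113 to 144 for Ang II alone and 85.4 to 109.5 for controls. Fibroblast markers (6 of 6) summed to 1829.8 to 2219.5 CPM under EHP-101, 1262 to 1868 under losartan, 2001 to 3068 for Ang II alone and 1032 to 1525 for controls. Endothelial and mural markers (4 of 4 each) ranged from 706 to 1136 and from 811 to 1483 CPM over the 12 libraries. Adipocyte markers (4 of 5 tested) ranged from 0.753 to 52.9 CPM and erythroid markers (5 of 5) from 144 to 740.0 CPM. EHP-101 replicate 2 was above 2-fold of the median of the other 10 libraries for 1 adipocyte gene and for 0 genes of the other marker lists (2.45% of all tested genes). Their part in the members' levels was not tested.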

How the data were processed

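Members and gene lists were chosen with earlier results of these data known. Heart RNA was extracted with Qiazol, 300 ng went into TruSeq v2 libraries, which keep no strand, and single-end 50 bp reads were sequenced, per the labels' protocols. The deposited table holds raw counts per gene that the authors made with fastp 0.20.0, HISAT2 2.1.0 and featureCounts 2.0.0 on GRCm38, with edgeR 3.30.0 also listed, per the submitters' processing notes; the annotation and strand setting are not given in the sources used here. All 12 count columns were used. Genes were filtered with filterByExpr (15336 of 47729 kept), scaled by TMM and tested in 1 edgeR 4.0.16 quasi-likelihood fit (robust, a mean per group; R 4.3.3) with Benjamini-Hochberg adjustment and a threshold of 0.05. The SE is the absolute log2 fold change over the square root of F. Alternatives were RLE scaling, library size alone, DESeq2 1.42.0, limma-voom (limma 3.58.1), no filter beyond 1 read, a mean of at least 5 CPM, a replicate block and each library left out. Named were the 10 members, Nr3c1, Nr3c2 and Hsd11b1, from each list the 3 genes with the smallest p per comparison and any called, and the 5 genes most like Fkbp5. A few others (Arrdc2, Angptl4, Dusp1, Egr1, Per2, Fam107a) were chosen after their values were seen. No pair of libraries of the same group agreed within sampling noise, and pairs across groups were not checked. The script was tested on simulated data. Coordinates are GENCODE M21 and promoters RefSeq, both GRCm38.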

Additional observations from a re-analysis of the deposited data

Results flagged for a closer look

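Fkbp4, like Fkbp5 a helper protein of Hsp90, lay on opposite sides of the Ang II mean under the 2 treatments. It had 225, 265 and 255 CPM in the EHP-101 libraries, 288, 322 and 370.4 CPM in the losartan libraries, 248, 305 and 268 CPM for Ang II alone and 391, 565 and 372 CPM in the control libraries. All 3 EHP-101 values were below the Ang II mean and all 3 losartan values above it, and the EHP-101 and losartan ranges did not overlap. Both treatment ranges overlapped the Ang II range, and neither treatment against Ang II passed for Fkbp4 in edgeR. The direct test of EHP-101 against losartan gave a log2 fold change of -0.40 ± 0.17, which did not pass (adjusted p = 0.793, edgeR), with all 3 EHP-101 values lower. The control libraries had the highest values of the 4 groups. Groups of 3 libraries were not tested for stray samples here.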

How the results depend on the processing

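The members called stayed at 0 in all 4 comparisons under all 20 alternatives. In DESeq2 the default outlier rule can leave a gene with 1 extreme library without a p-value, and such a gene was counted as not called. Whether this held for any member is not given here. Counted with Fkbp5, EHP-101 replicate 2 was the highest library for 9 members under TMM, RLE and library size alone. The number of genes called did move. Ang II against control gave 83 genes with edgeR, 513 with DESeq2, 51 with limma-voom, 167 with no filter on low counts and 52 with EHP-101 replicate 2 and losartan replicate 1 both left out, a setting chosen after seeing the data. Leaving out 1 library at a time gave 8 to 151, lowest without Ang II replicate 1 or 3 and highest without Ang II replicate 2. DESeq2 and the fit with no filter called 61 and 10 genes for EHP-101 against Ang II, 108 and 30 for losartan against Ang II, and 25 and 3 for EHP-101 against losartan. Leaving out 1 library gave 0 throughout, 0 to 3 and 0 to 2 genes for these comparisons, with the highest of the last 2 ranges reached without control replicate 2. The causes were not tested. Deviations of same-numbered libraries from their group means had correlations of -0.327 to 0.330. Differently numbered libraries were not compared, so whether the replicate numbers pair the samples cannot be told from this check. With a replicate block edgeR called 57, 0, 0 and 0 genes in the 4 comparisons, and 0 members.

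Of 2364 gene values under the alternatives, 2288 kept their direction and side of the threshold, 10 passed where they had not and 66 turned sign, none of these called. For Ang II against control the log2 fold changes that turned sign were Tsc22d3 0.12, Klf9 0.068 and Ddit4 0.20 with library size alone, Ddit4 0.11 with limma-voom, Ddit4 0.043 with a minimum mean of 5 CPM, and Ddit4 0.16 with the replicate block. For EHP-101 against Ang II the log2 fold changes that turned sign were Ppid -0.056 with library size alone, and Klf9 -0.0051, Ddit4 -0.15, Errfi1 -0.24 and Cdkn1a -0.53 with both high libraries left out. For losartan against Ang II the log2 fold changes that turned sign were Cdkn1a -0.023 with limma-voom, and Fkbp5 -0.047, Tsc22d3 -0.11, Ddit4 -0.29, Mt1 -0.32, Mt2 -0.59, Errfi1 -0.18, Cdkn1a -0.58 and Pdk4 -0.15 with both high libraries left out. For EHP-101 against losartan the log2 fold changes that turned sign were Sgk1 -0.025, Errfi1 -0.061, Trp53inp1 -0.10 and Slc39a10 -0.079 with both high libraries left out. Over the fits that leave out 1 library each, the values ran as follows where any turned sign. For Ang II against control, Fosb -0.16 to 1.89, Tsc22d3 -0.16 to 0.090, Ddit4 -0.31 to 0.26, Mt1 -0.14 to 0.38, Nr3c1 -0.023 to 0.17 and Klf9 -0.26 to 0.15. For EHP-101 against Ang II, Klf9 -0.0051 to 0.57, Ddit4 -0.15 to 2.29, Errfi1 -0.24 to 0.50 and Cdkn1a -0.53 to 1.49. For losartan against Ang II, Fkbp5 -0.056 to 1.08, Tsc22d3 -0.12 to 0.76, Ddit4 -0.29 to 0.96, Mt1 -0.33 to 1.02, Mt2 -0.60 to 1.57, Errfi1 -0.19 to 0.30, Cdkn1a -0.59 to 0.49 and Pdk4 -0.16 to 2.01. For EHP-101 against losartan, Fkbp5 -0.094 to 2.42, Tsc22d3 -0.18 to 1.12, Sgk1 -0.23 to 0.79, Ddit4 -0.80 to 2.09, Mt1 -0.41 to 1.28, Mt2 -0.98 to 2.26, Errfi1 -0.38 to 0.46, Cdkn1a -0.74 to 1.64, Hsd11b1 -0.12 to 0.51, Hif3a -0.087 to 2.5, Fam107a -0.32 to 3.31, Trp53inp1 -0.31 to 0.88, Klf9 -0.43 to 0.22 and Slc39a10 -0.020 to 0.13. With 3 libraries a group, the members' values differed widely between libraries of the EHP-101 and losartan groups. The part of depth in their precision was not tested.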

Other observations

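Clock genes, which drive the daily rhythm of the heart, were named as the 3 of 17 with the smallest p in each comparison, and 0 passed in edgeR. For EHP-101 against Ang II, 7 were higher and 2 lower at an unadjusted p below 0.05 (7.22% of all tested genes in either direction). They were led by Per2 2.0 ± 0.45, Ciart 1.75 ± 0.43 and Tef 0.99 ± 0.24 on the log2 scale (lowest adjusted p = 0.311, edgeR), and DESeq2 called these 3. Per2, a repressor of the clock, had 30.2, 27.6 and 20.6 CPM in the EHP-101 libraries, 15.2, 10.5 and 5.19 CPM in the losartan libraries, 6.95, 6.4 and 6.22 CPM for Ang II alone and 7.06, 3.39 and 15.2 CPM in the control libraries. All 3 EHP-101 libraries lay above the other 9 for Per2. For losartan against Ang II the log2 fold changes were Tef 0.61 ± 0.24, Ciart 0.96 ± 0.43 and Npas2 -0.48 ± 0.24. For Ang II against control they were Npas2 0.85 ± 0.24, Ciart -1.28 ± 0.43 and Dbp -1.58 ± 0.54, where Npas2 is an activator of the clock and Dbp an output gene, and DESeq2 called Npas2. For EHP-101 against losartan they were Per2 1.34 ± 0.44, Bhlhe41 0.50 ± 0.20 and Clock -0.30 ± 0.14. The hour of tissue collection is not given in the sources used here.

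Immediate early genes, which are switched on within minutes, had 0 genes called by edgeR in the 4 comparisons. For EHP-101 against Ang II, 10 of 11 had a negative log2 fold change and 3 were lower at an unadjusted p below 0.05 (7.22% of all tested genes in either direction). They were led by Junb -1.07 ± 0.30, Fos -1.91 ± 0.54 and Fosb -2.48 ± 0.75 (lowest adjusted p = 0.409, edgeR). For losartan against Ang II all 11 were negative and 7 were lower at that level (8.41% of all tested genes in either direction). They were led by Junb -1.23 ± 0.30, Egr2 -1.76 ± 0.45 and Fos -2.03 ± 0.54, and DESeq2 called Junb and Egr2. For Ang II against control all 11 were positive, led by Egr2 1.85 ± 0.46, Fos 1.25 ± 0.52 and Fosb 1.46 ± 0.70, and DESeq2 called Egr2. Without Ang II replicate 1, Fosb turned to -0.16 and Fos was at 0.35 in that comparison, and against Ang II without it Fosb under EHP-101 was at -0.85, Fos under EHP-101 at -1.0 and Fos under losartan at -1.12. For EHP-101 against losartan they were Egr2 1.38 ± 0.45, Ier3 0.66 ± 0.29 and Nr4a1 0.74 ± 0.35. Fos had 11, 5.28 and 14.3 CPM in the EHP-101 libraries, 6.79, 14.4 and 6.83 CPM in the losartan libraries, 73.7, 15.4 and 25.5 CPM for Ang II alone and 18.7, 13.7 and 15.8 CPM in the control libraries. The Ang II range overlapped the control range for Fos, and EHP-101 replicate 2 was the lowest library.

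A list of 10 targets of p53 other than Cdkn1a had in EHP-101 replicate 2 a median ratio of 0.900 to the other 10 libraries, and 0 of 10 passed in edgeR. The list leaves out Sesn1, counted among the wider glucocorticoid targets, with ratios of 1.66 in EHP-101 replicate 2 and 2.15 in losartan replicate 1. The part of p53 in the members' levels was not tested. The members' median ratio in EHP-101 replicate 2 was 4.72, a description, since it includes Fkbp5, whose value there led to their choice. Trp53inp1 was the 1 gene of the list above 2-fold there, with 23.9, 90.2 and 28.2 CPM in the EHP-101 libraries, 40.6, 28.1 and 27.7 CPM in the losartan libraries, 37.9, 25.1 and 32.6 CPM for Ang II alone and 21.5, 16.4 and 23.9 CPM in the control libraries, so EHP-101 replicate 2 was its highest library and losartan replicate 1 the next. The genes with the smallest p were Eda2r -0.45 ± 0.15, Sesn2 -0.38 ± 0.17 and Phlda3 -0.39 ± 0.22 for EHP-101 against Ang II and Phlda3 -0.54 ± 0.22, Gdf15 -1.13 ± 0.50 and Sesn2 -0.37 ± 0.17 for losartan against Ang II. They were Zmat3 0.37 ± 0.16, Gdf15 1.13 ± 0.51 and Aen -0.32 ± 0.18 for Ang II against control and Eda2r -0.45 ± 0.15, Gdf15 0.83 ± 0.51 and Trp53inp1 0.56 ± 0.40 for EHP-101 against losartan, and without EHP-101 replicate 2 the last of these turned to -0.31. A list of 5 genes linked to metal handling, other than Mt1 and Mt2, had a median ratio of 1.1 in EHP-101 replicate 2, with 0 of 5 passing. Whether each of the 5 is induced by metals was not checked, so this median is no measure of a metal response. EHP-101 replicate 2 ranked 1 of 12 for Slc30a1, 2 for Gclc, 3 for Slc39a10, 9 for Mtf1 and 10 for Mt3. Losartan replicate 1 ranked 3, 1, 10, 10 and 12 for these genes. Their smallest p belonged to Mt3 -1.47 ± 0.61, Slc30a1 0.19 ± 0.14 and Slc39a10 -0.15 ± 0.14 for EHP-101 against Ang II and Mt3 -1.38 ± 0.60, Gclc 0.30 ± 0.15 and Slc39a10 -0.22 ± 0.14 for losartan against Ang II. For Ang II against control they were Slc39a10 0.39 ± 0.14, Mt3 0.72 ± 0.58 and Mtf1 -0.16 ± 0.14, and for EHP-101 against losartan Gclc -0.28 ± 0.15, Mtf1 -0.19 ± 0.14 and Slc39a10 0.069 ± 0.14. Mt3 is another metallothionein gene and Slc30a1 a zinc exporter under metal control. Mt3 had 0.508, 0.421 and 1.31 CPM in the EHP-101 libraries, 0.279, 1.76 and 0.337 CPM in the losartan libraries, 2.73, 2.37 and 1.16 CPM for Ang II alone and 1.38, 1.08 and 1.34 CPM in the control libraries, so losartan replicate 1 was its lowest library and EHP-101 replicate 2 ranked 10 of 12.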
